A study of Homo sapiens with 12 samples.

Results

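The genes examined here make, break down or sense the catecholamines, a family of amine transmitters and hormones that includes dopamine, noradrenaline and adrenaline. They are 8 of the 56832 gene symbols counted in each library: the synthesis enzymes TH, DDC and DBH, the breakdown enzymes MAOA and MAOB, and the adrenergic receptors ADRA2A, ADRA2C and ADRB1. DDC and ADRA2A were chosen because they were low in TRB cells given T3, so their values in comparisons with that group are a description with no test. The other 6 were listed for their place in the pathway. The cells were SW1736, an established human line of anaplastic thyroid cancer. They carried the vector pCDH-TRB, for stable expression of thyroid hormone receptor beta (TRB cells), or the empty vector pCDH-EV (EV cells). For 24 h all cells were starved of hormone in medium with charcoal-stripped serum, and for the next 24 h they were exposed to 10 nM T3 (triiodothyronine, the active thyroid hormone) or to NaOH, its vehicle. This gave 4 groups of 3 RNA sequencing libraries: EV with vehicle, EV with T3, TRB with vehicle and TRB with T3. The labels do not say whether replicates came from separate cultures or how many clones a line holds, so p-values measure the spread between these libraries, which may be technical.

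Catecholamines are built from tyrosine in a chain of steps. Tyrosine hydroxylase (TH) makes L-DOPA, aromatic L-amino acid decarboxylase (DDC) turns L-DOPA into dopamine and also 5-hydroxytryptophan into serotonin, and dopamine beta-hydroxylase (DBH) turns dopamine into noradrenaline. The monoamine oxidases MAOA and MAOB, on the outer mitochondrial membrane, oxidise these amines. Alpha-2 receptors such as ADRA2A and ADRA2C couple to inhibitory G proteins and lower cyclic AMP, while beta-1 receptors (ADRB1) couple to the stimulatory G protein and raise it. Thyroid hormone has long been known to change the sensitivity of tissues to catecholamines, above all in the heart.

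Counts within genes ran from 3819306 to 13086717 per library. THRB, the gene of the supplied receptor, stood at 14.6 ± 1.39 CPM (counts scaled for library size; SD, n = 3) in EV with vehicle and at 80.1 ± 0.314 in TRB with vehicle. With T3 it stood at 14.9 ± 3.04 CPM in EV cells and at 269.6 ± 69.8 CPM in TRB cells, so its transcript was not constant between the TRB groups (1.75 on the log2 scale, edgeR adjusted p 0.000434). The part of this rise in the results below was not tested. TRB with T3 replicate 2 stood apart from all other libraries. The coefficient of variation among replicates, fitted over all genes, was 0.329 with it and 0.131 without it. In that library genes rich in G and C were low: at the GC content of ADRA2A, 59.2%, its log2 expression lay at -2.16 on the fitted GC trend, where the other 11 libraries ran from -0.08 to 0.53. In the fit of 12 libraries every comparison shares the fitted spread, those without TRB with T3 included. Results are therefore given with and without this library where it matters. Of the 8 genes, 5 passed the filter on low counts (DDC, MAOA, MAOB, ADRA2A and ADRB1), and TH, DBH and ADRA2C did not.

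**Figure D1:**
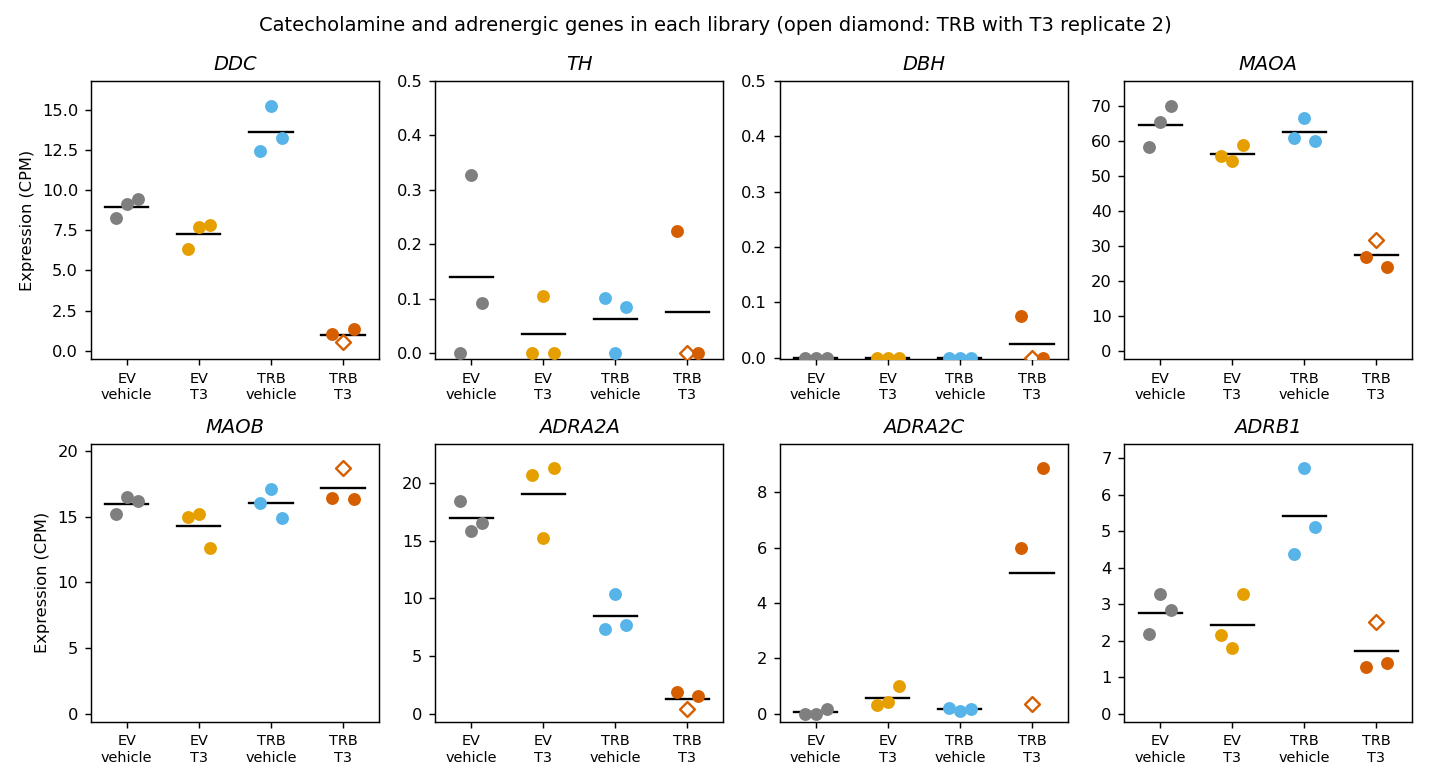
Expression in CPM (vertical axes, linear) of the 8 genes in each of the 12 libraries, by group. Points are libraries, bars are group means, and the open diamond is TRB with T3 replicate 2. DDC, MAOA and ADRA2A are lowest in all 3 libraries of TRB with T3, MAOB is level, and ADRA2C is high in TRB with T3 replicates 1 and 3.

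Of the synthesis enzymes, DDC was the one that these cells transcribed at a measurable level, and its transcript was lowest in TRB cells given T3. DDC measured 12.4, 15.3 and 13.3 CPM in vehicle-treated TRB replicates 1, 2 and 3, and 1.05, 0.54 and 1.37 CPM after T3. The 2 groups did not overlap, and TRB with T3 lay below every other library. The fitted difference was -3.72 on the log2 scale (SE 0.271), or 13.2-fold lower, and -3.47 without TRB with T3 replicate 2. Among the 14431 genes tested in this comparison 14.7% were called in either direction and 23.5% had T3 libraries that all lay below the vehicle libraries, and nothing is read from this for a gene chosen by the same difference. In bulk RNA fewer cells with a transcript and less of it per cell cannot be told apart.

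In EV cells, which have only their own receptors, the choice of DDC left the T3 response open to a test. DDC stood at 8.25, 9.15 and 9.47 CPM with vehicle and at 6.33, 7.71 and 7.85 CPM with T3. All 3 T3 libraries lay below the vehicle libraries, as for 15.9% of all genes. The fitted difference of -0.30 (SE 0.232, 95% interval -0.81 to 0.21) did not pass in edgeR's quasi-likelihood test (adjusted p 0.935). Without TRB with T3 replicate 2 it was -0.31 (edgeR adjusted p 0.221), where 7.33% of genes were called. With offsets for GC content as well it was -0.39 (edgeR adjusted p 0.097). The highest DDC level was in TRB with vehicle (13.6 ± 1.46 CPM), followed by EV with vehicle (8.96 ± 0.63), EV with T3 (7.30 ± 0.841) and TRB with T3 (0.988 ± 0.421).

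The DDC gene (ENSG00000132437) lies on chromosome 7 of GRCh38, from 50458436 to 50565457 on the minus strand in GENCODE release 29. Its exons share 114 bases with an antisense gene, and strand use in the authors' counting is not given in the sources used here, so reads of both could be counted together there. RefSeq lists more than 1 start for DDC, and counts per gene do not separate transcripts from different starts. The thyroid hormone receptor binds DNA through copies of the hexamer AGGTCA, often as a pair with 4 bases between them. The bases before a RefSeq start are shown for genes that differed in their response: DDC and ADRA2A, which were low in TRB with T3, ADRA2C, which was high in 2 of those 3 libraries, and MAOB, which did not differ detectably. Sequence is from RefSeq (GRCh38.p14), 5′ to 3′ on the strand of the gene, ends before the first annotated exon base, and carries matches to AGGTCA on either strand in capitals.
DDC (upstream start, chr7:50565458-50565655, minus strand): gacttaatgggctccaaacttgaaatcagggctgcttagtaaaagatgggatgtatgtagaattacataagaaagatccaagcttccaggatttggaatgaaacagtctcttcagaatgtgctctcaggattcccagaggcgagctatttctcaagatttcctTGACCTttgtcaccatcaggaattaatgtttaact
ADRA2A (chr10:111076779-111077028, plus strand): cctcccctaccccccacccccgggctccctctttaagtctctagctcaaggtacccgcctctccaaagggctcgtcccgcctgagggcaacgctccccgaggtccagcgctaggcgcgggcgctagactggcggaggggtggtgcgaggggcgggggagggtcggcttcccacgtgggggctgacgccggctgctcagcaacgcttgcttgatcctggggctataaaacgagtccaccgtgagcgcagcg
ADRA2C (chr4:3766135-3766347, plus strand): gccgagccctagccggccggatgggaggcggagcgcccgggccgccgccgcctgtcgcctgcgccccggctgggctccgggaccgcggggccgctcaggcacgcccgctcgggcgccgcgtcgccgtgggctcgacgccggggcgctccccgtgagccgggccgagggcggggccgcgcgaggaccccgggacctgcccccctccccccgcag
MAOB (chrX:43882451-43882700, minus strand): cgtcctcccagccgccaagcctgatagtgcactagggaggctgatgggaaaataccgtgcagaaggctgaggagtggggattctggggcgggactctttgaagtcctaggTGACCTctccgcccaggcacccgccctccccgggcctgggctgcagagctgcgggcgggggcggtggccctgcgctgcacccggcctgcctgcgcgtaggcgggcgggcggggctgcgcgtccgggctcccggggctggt

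In the 250 bases before each RefSeq start, AGGTCA had 1 match in DDC, which begins 87 bases before the upstream start, and 1 in MAOB, 140 bases before its start. The other DDC start and the windows of MAOA, DBH, ADRA2A, ADRA2C and ADRB1 had none, and the table used here holds no entry for TH. Of all the windows listed by RefSeq, 35116 in number, 12.1% held a match. A pair of AGGTCA copies in the same direction with any 4 bases between them, and the cyclic AMP response element TGACGTCA had no match in the windows of these genes, against 0.0142% and 1.65% of all windows.

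The enzymes before and after DDC were close to absent. TH had 11 counts over all 12 libraries, at most 4 in any library, or 0.102 CPM with an exact Poisson 95% interval of 0.0509 to 0.182, which covers counting error only. DBH had 1 count, in TRB with T3 replicate 1. In the other 11 libraries it had 0 counts, which allows up to 3 counts, or 0.245 to 0.759 CPM depending on the library. In edgeR without the filter neither gene was called in any comparison, with adjusted p-values of 0.828 for TH and 0.602 for DBH for T3 in TRB cells. At this depth no difference was detectable.

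MAOA, which prefers serotonin and noradrenaline as substrates, had the highest CPM of the 8 genes in every group and fell in TRB cells given T3. Its gene spans 43654907 to 43746824 on the plus strand of chromosome X, and that of MAOB 43766611 to 43882447 on the minus strand (GRCh38). The vehicle-treated TRB libraries held 60.8, 66.4 and 60.1 CPM, and those given T3 held 26.9, 31.7 and 23.9 CPM. Every library of TRB with T3, replicate 2 included, lay below all 9 others. Of all tested genes, 23.5% had T3 libraries that all lay below the TRB vehicle libraries. The share below all 9 others is not given here. The fitted change was -1.18 (SE 0.162, edgeR adjusted p 0.000704), or 2.27-fold lower, and -1.25 without TRB with T3 replicate 2 (edgeR adjusted p 4.82e-06). At the GC content of MAOA, 48.0%, the fitted GC trend of replicate 2 was -0.07, and the other 11 libraries ran from -0.05 to 0.06.

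In EV cells MAOA stood at 58.4, 65.4 and 70.1 CPM with vehicle and at 55.7, 54.2 and 59.0 CPM with T3. These groups overlapped, and the fitted difference of -0.20 (SE 0.16, 95% interval -0.55 to 0.15) did not pass in edgeR (adjusted p 0.935). Without TRB with T3 replicate 2 it was also -0.20 (edgeR adjusted p 0.208), where 7.33% of genes were called. With offsets for GC content as well it was -0.24 and lay just short of the threshold (edgeR adjusted p 0.0523). The 3 groups other than TRB with T3 lay between 56.3 ± 2.44 and 64.6 ± 5.89 CPM. With T3, TRB cells had 2.05-fold less MAOA than EV cells (-1.03, SE 0.162, edgeR adjusted p 0.0037), in a comparison where 6.68% of genes were called, though the call was lost with the 6 libraries of these groups alone (adjusted p 0.184, 0.241% called). Against EV with vehicle the difference was -1.24 (SE 0.163, edgeR adjusted p 0.000669), where 10.6% of genes were called, and the call was lost with those 6 libraries alone (adjusted p 0.0524, 2.81% called).

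The interaction term, the T3 response of TRB cells minus that of EV cells, uses the libraries of both T3 comparisons. It was -0.98 for MAOA (SE 0.227) and only just passed in edgeR (adjusted p 0.0492), where 2.59% of genes passed. The call was lost in 14 of 22 other settings. Leaving out TRB with T3 replicate 2 kept the call (-1.04, adjusted p 0.000836, 15.2% of genes called). Leaving out any 1 of the other 11 libraries lost it (adjusted p 0.0624 to 0.12).

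MAOB, the other monoamine oxidase, which prefers phenylethylamine and also oxidises dopamine, lies beside MAOA on the X chromosome and did not differ detectably. Its vehicle-treated TRB libraries held 16.1, 17.1 and 14.9 CPM and its T3 libraries 16.4, 18.7 and 16.4 CPM, so these groups overlapped. The fitted difference was 0.10 (SE 0.161, 95% interval -0.26 to 0.45, edgeR adjusted p 0.698). In EV cells it was -0.16 (SE 0.163, adjusted p 0.935), and its interaction of 0.25 did not pass (adjusted p 0.488).

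The order of the 2 oxidases was different in TRB with T3. Scaled by exon length, MAOA exceeded MAOB 1.86-fold to 2.44-fold in the 9 libraries of the other groups. In TRB with T3 the ratio of MAOA to MAOB per kilobase was 0.857, 0.885 and 0.763 in replicates 1, 2 and 3, so MAOB was the higher of the pair in all 3. The group means per kilobase were 11.3 CPM for MAOA and 5.55 CPM for MAOB in vehicle-treated TRB cells, against 4.97 and 5.94 CPM after T3.

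**Figure D2:**
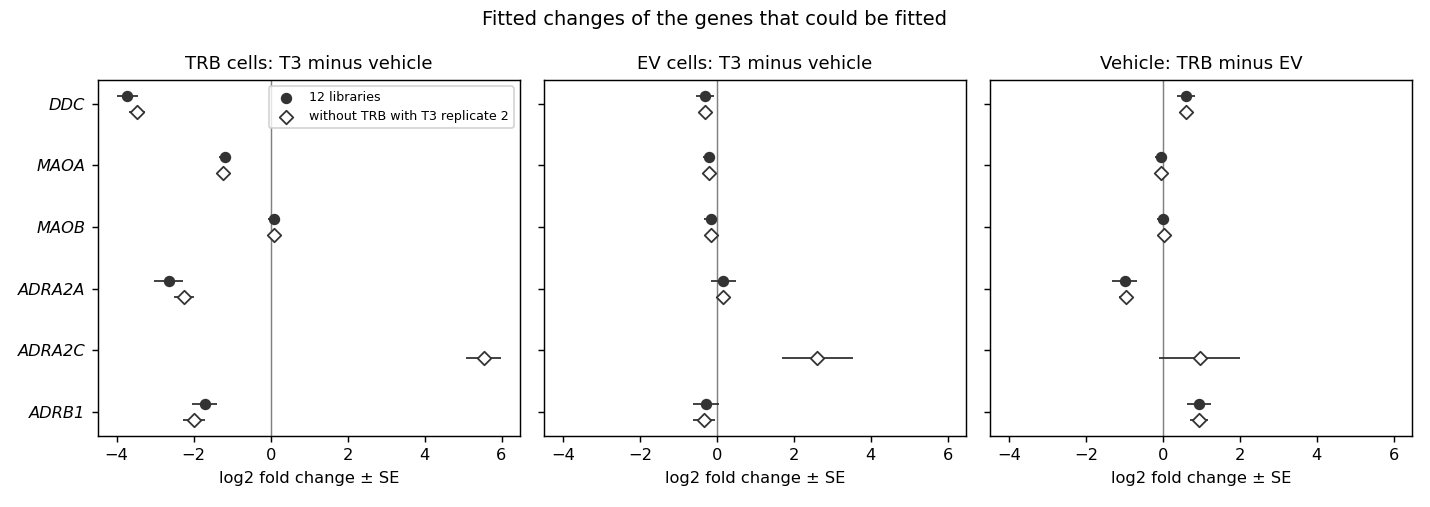
Fitted log2 fold change (horizontal axes) ± SE for 6 genes in 3 comparisons; filled circles use 12 libraries and open diamonds leave out TRB with T3 replicate 2. In TRB cells DDC, MAOA, ADRA2A and ADRB1 lie below 0, MAOB at 0.10 and ADRA2C, fitted only without replicate 2, at 5.53, while in EV cells the 5 genes fitted on 12 libraries lie between -0.30 and 0.17.

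ADRA2A, the alpha-2A receptor, was the main adrenergic receptor transcript of EV cells. Its gene is a single exon on chromosome 10, from 111077163 to 111080907 on the plus strand (GRCh38). It stood at 18.5, 15.9 and 16.5 CPM in EV with vehicle and at 20.7, 15.2 and 21.3 CPM in EV with T3. The EV groups overlapped, and the fitted difference of 0.17 (SE 0.33, 95% interval -0.56 to 0.90) did not pass in edgeR (adjusted p 0.941). With the offsets for GC content the estimate was -0.06, again far from the threshold.

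In TRB cells ADRA2A stood at 7.32, 10.3 and 7.72 CPM with vehicle and at 1.88, 0.36 and 1.499 CPM with T3. The groups did not overlap, and the lowest value was that of replicate 2, the library in which GC-rich genes were low. The fitted difference was -2.65 (SE 0.382), or 6.27-fold lower. It was -2.24 without replicate 2 and -2.33 with GC offsets, so the gene was low in TRB with T3 in replicates 1 and 3 alone as well. Against EV with T3 the difference was -3.81 with 12 libraries and -3.38 without replicate 2. These values describe the gene by the difference it was chosen for.

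ADRB1, the beta-1 receptor, fell with T3 in TRB cells. It too is a gene of a single exon, on chromosome 10 from 114044056 to 114046908. It stood at 4.37, 6.72 and 5.12 CPM with vehicle and at 1.28, 2.52 and 1.37 CPM with T3. The groups did not overlap, as for 23.5% of all tested genes in this direction, and replicate 2 was the highest of the T3 libraries. The change was -1.71 (SE 0.326, edgeR adjusted p 0.0053), or 3.27-fold lower, and -1.99 without replicate 2 (edgeR adjusted p 0.000206, 33.3% of genes called). With the 6 TRB libraries alone, where 4.52% of genes were called, it did not pass (-1.69, adjusted p 0.0548). At the GC content of ADRB1, 57.4%, the GC trend of replicate 2 was -1.82, and its ADRB1 level relative to replicates 1 and 3 was 0.93 on the log2 scale, against that trend. With GC offsets the change was -1.42 (edgeR adjusted p 0.0448, 42.8% of genes called).

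In EV cells ADRB1 stood at 2.17, 3.27 and 2.85 CPM with vehicle and at 2.16, 1.80 and 3.29 CPM with T3. These groups overlapped, and the difference of -0.28 (SE 0.338, edgeR adjusted p 0.937) did not pass. The interaction for ADRB1 was -1.43 (SE 0.471, edgeR adjusted p 0.154). It passed in 2 of the settings run, both without TRB with T3 replicate 2. These gave -1.65 (edgeR adjusted p 0.0203, 15.2% of genes called) and, with GC offsets as well, -1.58 (adjusted p 0.00801). The share of genes called in the second is not given here. With GC offsets on 12 libraries the interaction was -0.89 (adjusted p 0.438). Between TRB with T3 and EV with T3, ADRB1 did not differ detectably (-0.49, edgeR adjusted p 0.376), and TRB with T3 at 1.72 ± 0.691 CPM lay near EV with T3 at 2.42 ± 0.779. The highest mean was the 5.40 ± 1.201 CPM of TRB with vehicle.

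In all, 2 of the 3 genes that had passed the filter and were not chosen by their values (MAOA and ADRB1, not MAOB) fell with T3 in TRB cells, where 14.7% of all tested genes were called and 6.20% were called lower. The count was also 2 with DESeq2 and with limma-voom. With T3 in EV cells edgeR on 12 libraries, without GC offsets, called 0 of the 5 fitted genes and 0 had an unadjusted p under 0.05. DESeq2 and limma-voom called 0 as well, and edgeR called 0.229% of all tested genes in that comparison.

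ADRA2C, the alpha-2C receptor, went the other way in 2 of the 3 libraries of TRB with T3. Its single exon lies on chromosome 4, from 3766348 to 3768526 on the plus strand. Its counts were 2, 1 and 2 in vehicle-treated TRB libraries, 80, 2 and 71 in TRB with T3, 0, 0 and 2 in EV with vehicle, and 2, 4 and 4 in EV with T3. On the CPM scale this was 6.004, 0.36 and 8.87 in TRB with T3, and 1.01 or less in every other library. Replicates 1 and 3 lay above all libraries of the other groups, while replicate 2 lay within the range of EV with T3. In replicates 1 and 3 alone, 30.4% of genes lay wholly above the TRB vehicle libraries. Relative to the 5 counts of the 3 TRB vehicle libraries, replicate 1 was 40.1-fold higher (exact 95% interval 16.5 to 127), replicate 3 was 59.2-fold higher (24.2 to 188), and replicate 2 was 2.40-fold higher (0.229 to 14.7). These intervals cover counting error only.

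With 2 of 3 T3 libraries above the filter, ADRA2C was left out of the fit of 12 libraries. In the fit without a filter on low counts, where 5.97% of genes were called, ADRA2C was higher with T3 in TRB cells (4.99 on the log2 scale, edgeR adjusted p 0.000482). It was also higher in TRB than in EV cells with T3 (3.32, adjusted p 0.0199, 2.19% of genes called). Without replicate 2 the gene passed the filter through the libraries in which it was high and was 5.53 higher (SE 0.451), so that fit adds its size and no further support. The sizes depend on the few counts of the vehicle libraries. In EV cells ADRA2C had 10 counts with T3 and 2 with vehicle, a ratio of 6.97 (exact 95% interval 1.48 to 65.4). The EV change did not pass in edgeR without the filter (adjusted p 0.921), nor did the interaction (2.42, adjusted p 0.723).

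ADRA2C is the most GC-rich of these genes, at 69.5% of its transcript, and 0.371% of the tested genes with a GC value exceeded it. The GC trend of replicate 2, fitted without the filter on low counts, was -2.18 at that GC content, against -0.15 to 0.51 in the other 11 libraries. The ADRA2C level of replicate 2 lay at -4.37 relative to the mean of replicates 1 and 3. The part of GC content in the ADRA2C level of replicate 2 was not tested.

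**Figure D3:**
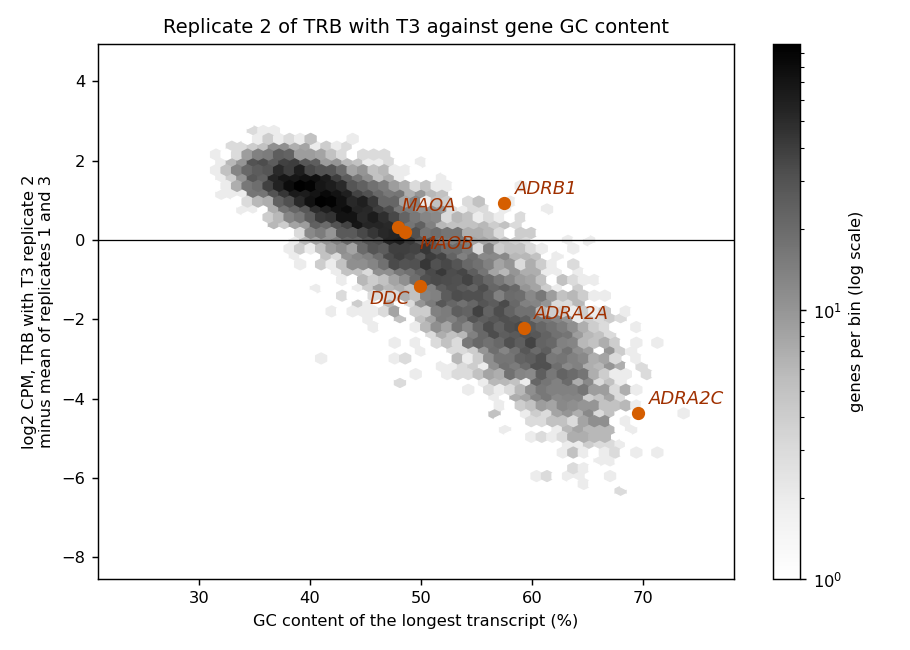
Difference in log2 CPM between TRB with T3 replicate 2 and the mean of replicates 1 and 3 (vertical axis) against transcript GC content in percent (horizontal axis); grey bins count tested genes on a log scale and orange points are 6 of the 8 genes, without a prior count. MAOA and MAOB lie near 0, ADRA2A at -2.23 and ADRA2C at -4.37 lie low at high GC, and ADRB1 at 0.93 lies above genes of like GC content.

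The order of the 2 alpha-2 receptors also differed. Scaled by exon length, ADRA2A exceeded ADRA2C 12.2-fold to 69.8-fold in the 7 libraries of the other groups in which ADRA2C had a count. In TRB with T3 the ratio of ADRA2A to ADRA2C was 0.182, 0.582 and 0.0983 in replicates 1, 2 and 3. ADRA2A was chosen for its low level in that group, a choice that lowers this ratio, so the order is a description with no test. The value of replicate 2 rests on 2 counts of each gene and so reflects their exon lengths only. Without scaling by exon length, the group means in TRB with vehicle were 8.46 ± 1.64 CPM for ADRA2A and 0.152 ± 0.0601 CPM for ADRA2C. In TRB with T3 they were 1.24 ± 0.789 and 5.08 ± 4.33 CPM.

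The vectors were also compared without hormone. In vehicle, ADRA2A stood at 15.9 to 18.5 CPM in EV and 7.32 to 10.3 CPM in TRB cells, and ADRB1 at 2.17 to 3.27 CPM in EV and 4.37 to 6.72 CPM in TRB cells. Neither pair of groups overlapped, in a comparison where 20.5% of genes lay wholly lower and 15.9% wholly higher in TRB cells. With 12 libraries edgeR called 0 of the 5 fitted genes, while ADRA2A (-0.998, SE 0.333) and ADRB1 (0.93, SE 0.306) had unadjusted p-values of 0.0125 and 0.0113, and an adjusted p of 1.00 each. DDC was 0.60 higher (SE 0.225) in TRB cells. DDC and ADRA2A were chosen against these same TRB vehicle libraries, a choice that favours a high level there, so the higher DDC level is a description only. DESeq2 and limma-voom called 0, and edgeR called 0.0208% of all genes.

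With the 6 vehicle libraries alone, ADRA2A at -0.95 (adjusted p 0.0114) and ADRB1 at 0.94 (adjusted p 0.0284) passed, and DDC stood at 0.62. In that setting 11.2% of genes passed. Without TRB with T3 replicate 2 only, neither passed (adjusted p 0.0825 for ADRA2A and 0.230 for ADRB1). ADRA2A also passed with GC offsets on 12 libraries (-1.17, adjusted p 0.0104), where 0.0577% of genes were called. MAOA (-0.05) and MAOB (0.01) did not pass with either set of libraries. Scaled by exon length, ADRA2A exceeded ADRB1 3.69-fold to 7.29-fold in the 6 EV libraries and 1.15-fold to 1.28-fold in the 3 TRB vehicle libraries, and these ranges did not overlap.

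The rest of the pathway was followed through lists of genes chosen for their function. Of 14 genes for synthesis, the tetrahydrobiopterin cofactor and vesicle storage, 9 were tested. With T3 in TRB cells, of the 8 other than DDC, GCH1 rose and QDPR and PCBD1 fell, where 14.7% of all genes were called. The median of the 8 was -0.45, beside 0.01 for all genes. GCH1, the first enzyme of cofactor synthesis, went from 14.99 ± 2.13 CPM to 29.6, 58.8 and 30.2 CPM (1.39, SE 0.303, edgeR adjusted p 0.0107). QDPR and PCBD1, which regenerate the cofactor, changed by -0.998 (adjusted p 0.00848) and -1.05 (adjusted p 0.0306). Without TRB with T3 replicate 2 these 3 kept their calls, GCHFR and PCBD2 were also lower and CYB561 was higher. In that fit 33.3% of all genes were called. Of the 8, 0 were called with the 6 TRB libraries alone and 6 with GC offsets, where 4.52% and 42.8% of all genes were called. In EV cells edgeR, DESeq2 and limma-voom called 0 of the 9, and 0 had an unadjusted p under 0.05. PNMT, which makes adrenaline, and the vesicle transporters SLC18A1 and SLC18A2 had at most 6, 1 and 3 counts in any library.

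Of 12 genes for uptake and breakdown 8 were tested, and MAOA was the 1 called with T3 in TRB cells in 12 libraries. The median of the 8 was 0.01, and with GC offsets 4 were called, beside 42.8% of all genes. SLC29A4, the plasma membrane monoamine transporter, had a mean of 10.9 ± 0.816 CPM in TRB with vehicle, and its T3 libraries held 90.1, 3.96 and 109.8 CPM in replicates 1, 2 and 3. Replicate 2 thus lay below the vehicle libraries and the others far above them. The change was 2.65 (edgeR adjusted p 0.0505) with 12 libraries and 3.24 (adjusted p 3.83e-07) without replicate 2. In EV cells SLC29A4 went from 13.6 ± 2.17 to 29.6 ± 9.90 CPM (1.122, edgeR adjusted p 0.935), and the change was 1.11 (adjusted p 0.0135) without that library, where 7.33% of genes were called. The neuronal carriers SLC6A2 and SLC6A3 had at most 0 and 1 counts.

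Of 13 adrenergic and dopamine receptor genes 3 passed the filter: ADRA2A, ADRB1 and ADRA2B. ADRA2B did not pass with T3 in TRB cells. Of the other 10, DRD4 had at most 12 counts in any library, ADRA2C at most 80, and the remaining 8 at most 3. The adrenergic receptor transcripts above the filter were those of ADRA2A, ADRB1 and ADRA2B, with ADRA2C in TRB with T3 replicates 1 and 3.

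Among 40 genes of receptor signalling and desensitisation, 31 were tested, and 6 rose and 1 fell with T3 in TRB cells, with a median of -0.30, where 14.7% of all genes were called. PDE4D, a phosphodiesterase that breaks down cyclic AMP, rose by 1.92 (SE 0.322, edgeR adjusted p 0.00261). RGS16 and RGS2, which speed the switching off of G proteins, rose by 1.47 (adjusted p 0.00399) and 1.44 (adjusted p 0.023). The scaffold AKAP12 (1.34), the receptor kinase GRK3 (1.31) and the inhibitory G protein subunit GNAZ (1.24) were also higher, and the receptor kinase GRK5 was lower (-1.13, adjusted p 0.00706). All 7 kept their direction and their call without TRB with T3 replicate 2, where 9 rose and 5 fell. In that fit 33.3% of all genes were called. With the 6 TRB libraries alone 2 of the 31 were called, beside 4.52% of all genes, and with GC offsets 14, beside 42.8%, a share near that of all genes. GNAI1, an inhibitory G protein subunit to which alpha-2 receptors couple, had a mean of 35.8 ± 5.18 CPM in TRB with vehicle and held 12.01, 42.3 and 10.5 CPM with T3, with a change of -0.74 (adjusted p 0.295), and of -1.61 (adjusted p 0.000156) without replicate 2. The related subunits GNAI2 and GNAI3 were more abundant in TRB with vehicle, at 118 ± 6.24 and 131 ± 14.5 CPM, and did not pass in either fit (0.10 and -0.18 without replicate 2, adjusted p 0.592 and 0.444).

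RGS16 was the 1 gene of this list called for the interaction in 12 libraries (1.80, SE 0.384, edgeR adjusted p 0.0357). Among all tested genes 2.59% were called there, so 1 of 31 is near the share of all genes. RGS16 measured 10.2 ± 0.730 CPM in TRB with vehicle and 34.3, 17.6 and 33.2 CPM with T3. It measured 8.90 ± 1.23 CPM in EV with vehicle and 7.11 ± 1.53 CPM in EV with T3. For T3 in EV cells, 0 of the 31 were called by edgeR, DESeq2 or limma-voom in 12 libraries, though 4 reached 0.05 before adjustment in edgeR. The edgeR fit that left out replicate 2 of TRB with T3 called 4 lower and 0 higher in EV cells. These were PRKACB (-1.19, adjusted p 0.0163), GNAI1 (-0.85, adjusted p 0.0249), PRKAR1A (-0.68, adjusted p 0.0462) and GRK5 (-0.63, adjusted p 0.0469), where 7.33% of genes were called. GC offsets on 12 libraries gave 2 calls in EV cells, and the share of all genes called there is not given here. Of 8 genes of other aromatic amine pathways, the serotonin enzymes TPH1 and TPH2 among them, 1 was tested and it was not called.

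**Figure D4:**
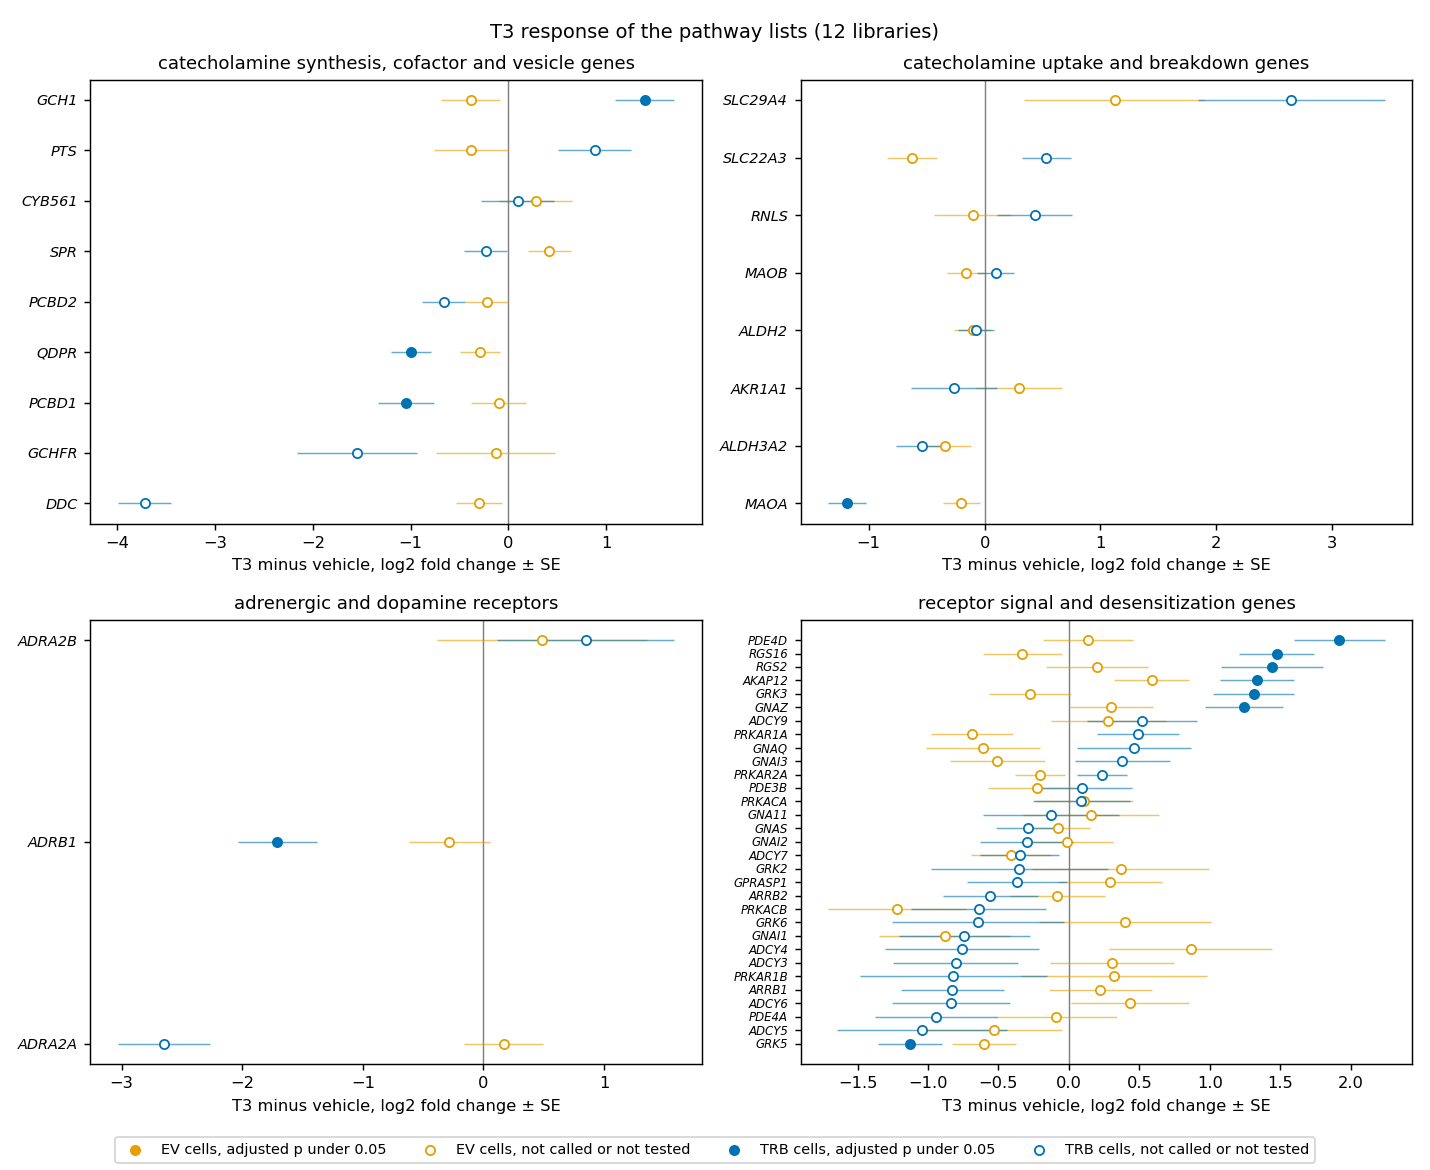
T3 response of the tested genes of 4 pathway lists, as log2 fold change ± SE with 12 libraries (horizontal axes); blue is TRB and orange EV cells, filled points passed edgeR at 0.05 and open points did not or, for DDC and ADRA2A in TRB cells, were not tested. Filled points appear only for TRB cells, with GCH1 at 1.39, MAOA at -1.18, ADRB1 at -1.71 and PDE4D at 1.92 among them.

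The genes whose pattern over the 12 libraries was most like that of DDC, by Pearson correlation of log2 CPM, were SH3RF2 (0.992), AKAP1 (0.990), FLVCR2 (0.990), CTSE (0.988) and COL17A1 (0.988). FLVCR2 stood at a mean of 21.0, 13.7, 28.1 and 2.84 CPM in EV with vehicle, EV with T3, TRB with vehicle and TRB with T3. For ADRA2A they were ETS2 (0.994), RNF157 (0.978), RNF43 (0.977), UQCRFS1 (0.970) and CD3EAP (0.966). ETS2 stood at a mean of 317, 331, 289 and 189 CPM in the same order. Of the 5 genes, 3 remained for DDC and 3 for ADRA2A without TRB with T3 replicate 2, and 1 for DDC and 3 for ADRA2A with Spearman's correlation over 12 libraries. The libraries share groups and depth, so the correlations are a description.

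Markers of cells that use catecholamines as transmitters were at or near 0. Among 12 markers of chromaffin cells and sympathetic neurons, PHOX2A, HAND2, CHGA, CHGB and STMN2 had 0 counts in all libraries, and the summed level of the list was 3.60 to 4.86 CPM in TRB with T3 and 4.88 to 6.73 CPM in the other groups, most of it ISL1. Of the thyroid C cell list CALCA and RET had 0 counts, and CEACAM5 made up most of its summed level, which was 0.500 to 1.62 CPM in TRB with T3 and 4.95 to 6.46 CPM in TRB with vehicle, and 1.01 to 1.90 CPM in EV with T3 and 4.17 to 4.34 CPM in EV with vehicle. Among 7 thyroid follicular markers TSHR and FOXE1 had 0 counts and the list had a summed level of 1.08 to 5.25 CPM in TRB with T3 and 6.48 to 10.9 CPM in the other groups. The 6 epithelial markers were all present, at a summed 2030 to 5022 CPM, with 2030 CPM in TRB with T3 replicate 2. The mesenchymal list summed to 2.52 to 15.9 CPM in TRB with T3 and 19.2 to 34.9 CPM in the other groups, most of it COL1A1, while its defining marker VIM had at most 18 counts. Blood cell markers reached 9.87 CPM, in TRB with T3, most of it CD14, and CD3E and HBB had 0 counts. The part of these differences in the results above was not tested.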

How the data were processed

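Total RNA of SW1736 cells was sequenced in 12 libraries, grouped by the sample labels. What the authors deposited for each library are raw read counts by gene symbol. The submitters' processing notes name CASAVA 1.7, STAR 2.7, HTSeq 0.10, DESeq2 and hg38, and the annotation and strand setting are not given in the sources used here. The 5 closing lines of each file (reads of no gene, ambiguous, not unique) entered neither library sizes nor tests; not unique alignments made up 19.0% to 92.0% of what a file counts. A deposited table of normalized values, with 11 library columns, was not used.

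Counts were filtered with filterByExpr (minimum count 10, minimum total 15; 14431 genes left), scaled by TMM and fitted in edgeR 4.0.16 (R 4.3.3) with 1 coefficient per group over 12 libraries. Tests were quasi-likelihood, two-sided, with Benjamini-Hochberg adjustment over all genes at 0.05; standard errors come from the fold change and F. CPM uses TMM-scaled sizes, and levels per kilobase use exon lengths of GENCODE release 29. GC offsets, chosen after seeing the data, take out each library's spline (5 degrees of freedom) against transcript GC content for the 12130 tested genes with a value. Alternatives were DESeq2 1.42.0, limma-voom (limma 3.58.1), other scalings and filters, the compared groups alone (filtered anew), a replicate block and leaving out each library. The fit was tested on simulated counts. Named were the 8 genes, members of 5 pathway lists that were called, and for DDC and ADRA2A the 5 most correlated genes with a mean log2 CPM (prior count 2) of at least 1. Outside this rule, some list members not called in 12 libraries were also named. Among them were SLC29A4, GNAI1, GNAI2, GNAI3 and genes with few counts. Members and lists were chosen with earlier results of these data known. GRK2 and GRK3 were matched by their older symbols through RefSeq; RefSeq starts were found for 7 of the 8 genes. Some genes of the marker lists are not reported here by name.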

Additional observations from a re-analysis of the deposited data

Results flagged for a closer look

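The T3 response of MAOA differed between the vectors at a p just under the threshold: the response in TRB cells minus that in EV cells was -0.98 (log2; SE 0.227; edgeR adjusted p 0.0492). MAOA went from 62.4 ± 3.48 to 27.5 ± 3.93 CPM in TRB cells and from 64.6 ± 5.89 to 56.3 ± 2.44 CPM in EV cells. All 3 T3 libraries of TRB cells lay below all 3 of EV cells, and the share of all genes that did so is not given here. The call was lost in 14 of 22 other settings, among them the replicate block, no filter on low counts and leaving out any 1 library other than TRB with T3 replicate 2.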

How the results depend on the processing

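The counts below are of the 8 genes called, without DDC and ADRA2A where TRB with T3 is compared. For T3 in TRB cells the count of 2 became 1 with the compared groups alone and ran from 2 to 3 when 1 library was left out, ADRA2C entering the fit there because the filter then asks for fewer libraries. For T3 in EV cells it was 0 in every setting run. For TRB against EV in vehicle the count of 0 became 3 with the compared groups alone (ADRA2A, ADRB1 and DDC). It became 1 with GC offsets (ADRA2A) and 1 with GC offsets and no filter (ADRA2A). With GC offsets without TRB with T3 replicate 2 it became 2 (ADRA2A and DDC). DDC was chosen against these TRB libraries, so its part in these counts is a description only. The count was 0 when any 1 library was left out. For TRB against EV with T3 the count of 1 became 0 with the compared groups alone. It became 2 with no filter, with GC offsets without replicate 2, and with GC offsets and no filter. It ran from 1 to 2 when 1 library was left out. The gene added was ADRA2C each time. Between TRB with T3 and EV with vehicle the count of 1 became 0 with the compared groups alone. It became 2 with no filter and with GC offsets and no filter, through ADRA2C. It became 3 with GC offsets without replicate 2, through ADRA2C and ADRB1. It ran from 1 to 3 when 1 library was left out. In filtered fits with a library left out, ADRA2C passed the filter through the libraries in which it was high. Its calls there add no support in any comparison. For the interaction the count of 1 became 0 with DESeq2 size factors, with no filter and with the replicate block, and 2 with GC offsets without replicate 2; it ran from 0 to 2 when 1 library was left out. The shares of all genes called with GC offsets without replicate 2, and with GC offsets and no filter, are not given here. Those counts therefore cannot be set beside a background. Where the construction of a setting does not show it, the cause was not tested.

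Signs turned only in differences near 0 that were not called. ADRA2A for T3 in EV cells was -0.057, -0.048 and -0.0021 in the 3 settings with GC offsets. MAOB in TRB cells was -0.0051 and, against EV with vehicle, -0.0010 with GC offsets without replicate 2. In vehicle MAOB was -0.014 with no filter, -0.0024 with GC offsets and no filter, and -0.0068 without TRB with vehicle replicate 2, and ran to 0.0904; MAOA ran from -0.0856 to 0.0355 and was 0.0109 without TRB with vehicle replicate 3 when 1 library was left out. MAOA passed for T3 in TRB cells in all 23 settings and ADRB1 in 22.

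The fit with the replicate number as a block took MAOA's interaction to an adjusted p of 0.0623 and changed no other call of the 8 genes. The labels give the numbers no meaning, and the numbers were not taken as pairs in the main fit. Deviations of same-numbered libraries correlated from -0.10 to 0.28 for replicate 1 and from -0.19 to 0.64 for replicate 3. For replicate 2 all were positive, from 0.12 to 0.73. Whether libraries of the same number shared a batch was not tested. Depth limits TH, DBH and ADRA2C: 3 counts, the most that a count of 0 allows, come to 0.225 to 0.759 CPM.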
